A study of Homo sapiens with 24 samples.

Results

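TXNIP, TXNDC12, GLRX2, PRDX1, PRDX6, GCLM and GSTM3 are genes of thiol and glutathione metabolism on chromosome 1. They were chosen by gene symbol and make up 7 of the 11579 rows of an expression table of HEK293, a human cell line established from embryonic kidney. The cells were untransfected or carried the empty vector pCMV-flag, the plasmid pCMV-EVI1-WT-flag or its mutant form, pCMV-EVI1-AQA-flag. The plasmids other than the empty vector encode flag-tagged EVI1, a zinc finger transcription factor. In EVI1-AQA, alanines take the place of the serines of a carboxy-terminal SQS phosphorylation motif. H2O2 was given to each of these 4 transfection states at 150 μM for 8 h or withheld, with 3 samples in each of the 8 groups and a batch number from 1 to 3 that equals the replicate number. Transfection was transient and the plasmids were driven by the CMV promoter, so a culture may hold cells without plasmid. The RNA came from whole cultures, and a change in every cell cannot be told apart from a larger change in a part of the cells.

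Hydrogen peroxide is removed in cells by peroxiredoxins, whose reactive cysteine is oxidised and then reduced again by thioredoxin or glutathione. Glutathione is made in a pathway whose rate-limiting enzyme is glutamate-cysteine ligase, glutaredoxins reduce disulfides between proteins and glutathione, and glutathione transferases attach glutathione to reactive compounds. TXNIP binds reduced thioredoxin and inhibits it, and also restrains glucose uptake.

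The libraries sequenced the 3′ ends of polyadenylated RNA. The deposited log2 values were centred on a mean of 0 for each row in each batch of 8 samples, so a value is a position relative to the other samples of its batch and not a level. Levels therefore cannot be compared between genes, the depth is unknown, and the markers of HEK293 cells could not be checked. On chromosome 1, 50.7% of the protein-coding genes and 2.39% of the other genes of GENCODE v44 were found as rows. On chromosomes 2 to 22 these shares were 19.3% and 16.4%, and genes were therefore named only from chromosomes 1 and X, apart from the row labelled CACNB3. In that row the untreated EVI1 samples lay between 2.62 and 4.14 and the other untreated samples between -4.49 and -1.64. With H2O2, the libraries labelled empty vector replicate 2 (4.36), EVI1-WT replicate 2 (-4.38) and EVI1-AQA replicate 1 (-2.60) departed from their groups in the same row. They were kept as labelled, and values without them are given beside the main changes that they move. The gene encoding EVI1 was not analysed here.

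Promoter sequences were matched for 5 of the 7 genes in RefSeq on GRCh38.p14. Those of TXNIP, the gene with the largest change, and of GCLM, the subunit of the rate-limiting enzyme, are printed. Each is the 250 bases before the RefSeq start, 5′ to 3′ on the minus strand, at chr1:145996580-145996829 and chr1:93909431-93909680. More than 1 start was listed for TXNIP (2), TXNDC12 (2) and GLRX2 (3). For these genes only the start nearest to that of GENCODE v44 was used, and matches at their other starts are not given. By GENCODE v44 GCLM starts further upstream, at chr1:93909456, so the last bases of its window lie within the gene. Capitals mark the matches to 4 motifs searched on both strands: TGACNNNGC (the core of the antioxidant response element), CACGNG repeated after any 5 bases (a carbohydrate response element), CCAAT (the CCAAT box) and GTAAACA (a forkhead motif).
TXNIP: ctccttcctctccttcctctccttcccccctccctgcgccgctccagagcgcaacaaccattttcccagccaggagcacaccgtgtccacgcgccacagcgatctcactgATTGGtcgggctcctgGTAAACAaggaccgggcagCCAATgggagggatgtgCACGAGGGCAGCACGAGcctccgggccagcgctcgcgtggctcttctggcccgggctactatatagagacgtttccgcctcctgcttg
GCLM: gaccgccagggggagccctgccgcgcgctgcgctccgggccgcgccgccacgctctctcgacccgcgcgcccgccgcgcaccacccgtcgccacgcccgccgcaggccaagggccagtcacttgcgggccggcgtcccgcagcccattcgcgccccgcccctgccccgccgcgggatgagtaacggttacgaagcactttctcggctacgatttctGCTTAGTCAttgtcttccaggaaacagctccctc
In TXNIP the carbohydrate response element lay at -88 to -72 from the start of the gene, and 0.0456% of 35116 promoters of the same length held a match to it. The forkhead motif of TXNIP at -124 to -118 had a match in 2.98% of promoters, and its CCAAT boxes, at -140 to -136 on the opposite strand and at -105 to -101, belong to a motif found in 32% of them. In GCLM the core of the antioxidant response element lay at -34 to -26 from the RefSeq start, on the opposite strand, and 10.9% of promoters held such a match. In the windows of TXNDC12 and GLRX2 none of the 4 motifs was matched, and GSTM3 had a CCAAT box only. A match describes the letters of a window and not the binding of a factor.

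To compare the genes with and without H2O2, the mean of the 4 states with H2O2 was set against the mean of the 4 untreated states. TXNIP fell, and it was the only one of the 7 genes to pass an adjusted p of 0.05 in limma, a test passed by 16.5% of all rows. At an unadjusted p of 0.05 it was also the only one, beside 31.1% of all rows. The fitted change was -0.97 on the log2 scale (SE 0.22, 95% interval -1.43 to -0.52, limma adjusted p = 0.00507), which left 50.9% of the untreated value (interval 37.2% to 69.7%). It ranked 6 of 11579 from the lowest change and 487 by p. With the replicate number as a block, TXNIP had a limma adjusted p of 0.0111, and 12.3% of all rows passed. The other 6 genes had fitted changes between -0.037 and 0.12.

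TXNIP (ENSG00000265972) lies at chr1:145992435-145996579 on the minus strand of GRCh38. In untransfected cells its log2 values in batches 1, 2 and 3 were 0.36, 0.42 and 1.53 when untreated and -0.30, -1.61 and 0.44 with H2O2. In empty vector cells they were 0.28, 0.62 and 0.47 when untreated and -0.69, -0.32 and -1.21 with H2O2. These groups overlapped in untransfected cells, where batch 3 was high in both treatments, and were apart in empty vector cells. In EVI1-WT cells the values were 0.19, 0.30 and 0.37 when untreated and -0.70, 0.17 and -0.82 with H2O2, and the groups did not overlap, although batch 2 with H2O2 lay next to the lowest untreated value. Groups without overlap were found in 24.5% of all rows in empty vector cells and in 21.5% in EVI1-WT cells. In EVI1-AQA cells they were 0.30, 0.57 and 0.45 when untreated and 0.55, -0.14 and -1.23 with H2O2. Batch 1 of EVI1-AQA with H2O2 was the highest of its 3 samples and lay among the untreated values.

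Within batches, TXNIP was lower with H2O2 in 11 of 12 same-numbered pairs, as were 4.33% of all rows in 11 or 12 pairs. The exception was EVI1-AQA in batch 1, at 0.25, which holds a library that departs in the row labelled CACNB3. Without the 3 departing libraries the fitted change was -1.21 (limma adjusted p = 0.00193) and 9 of 9 remaining pairs were lower. The mean difference was -0.56 ± 0.56 in batch 1, -0.95 ± 0.80 in batch 2 and -1.41 ± 0.32 in batch 3 (SD, n = 4 pairs). The single pairs ran from -2.03 to 0.25.

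By transfection state, none of the 7 genes passed an adjusted p of 0.05 in limma. Of all rows, 0.389% passed in untransfected cells, 2% in empty vector cells, 0.475% in EVI1-WT cells and 2.02% in EVI1-AQA cells. At an unadjusted p of 0.05 the counts were 1 gene of 7 in untransfected cells (TXNIP), 2 in empty vector cells (TXNIP and GSTM3), 0 in EVI1-WT cells and 1 in EVI1-AQA cells (GLRX2), where 15.4%, 17.5%, 14.7% and 17.7% of all rows passed. The change of TXNIP was -1.26 in untransfected cells (interval -2.17 to -0.35, limma adjusted p = 0.168) and -1.20 in empty vector cells (interval -2.1 to -0.29, limma adjusted p = 0.156). It was -0.73 with EVI1-WT (interval -1.64 to 0.17, limma adjusted p = 0.458) and -0.71 with EVI1-AQA (interval -1.62 to 0.20, limma adjusted p = 0.421). Without the 3 departing libraries the changes were -1.41 with empty vector, -1.04 with EVI1-WT and -1.12 with EVI1-AQA (limma adjusted p = 0.168, 0.327 and 0.175), and that of EVI1-AQA moved by over 1.5 times. The change with EVI1-AQA was -1.19 without replicate 1 and -0.23 without replicate 3, so its size rested on single batches. With all samples, the estimates of the 4 states were not distinguished from each other by the F-test of the interaction (limma adjusted p = 0.924). The response with EVI1-AQA minus that with EVI1-WT was 0.021, and its interval of -1.26 to 1.30 is wide. Without the departing libraries it was -0.084.

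**Figure D1:**
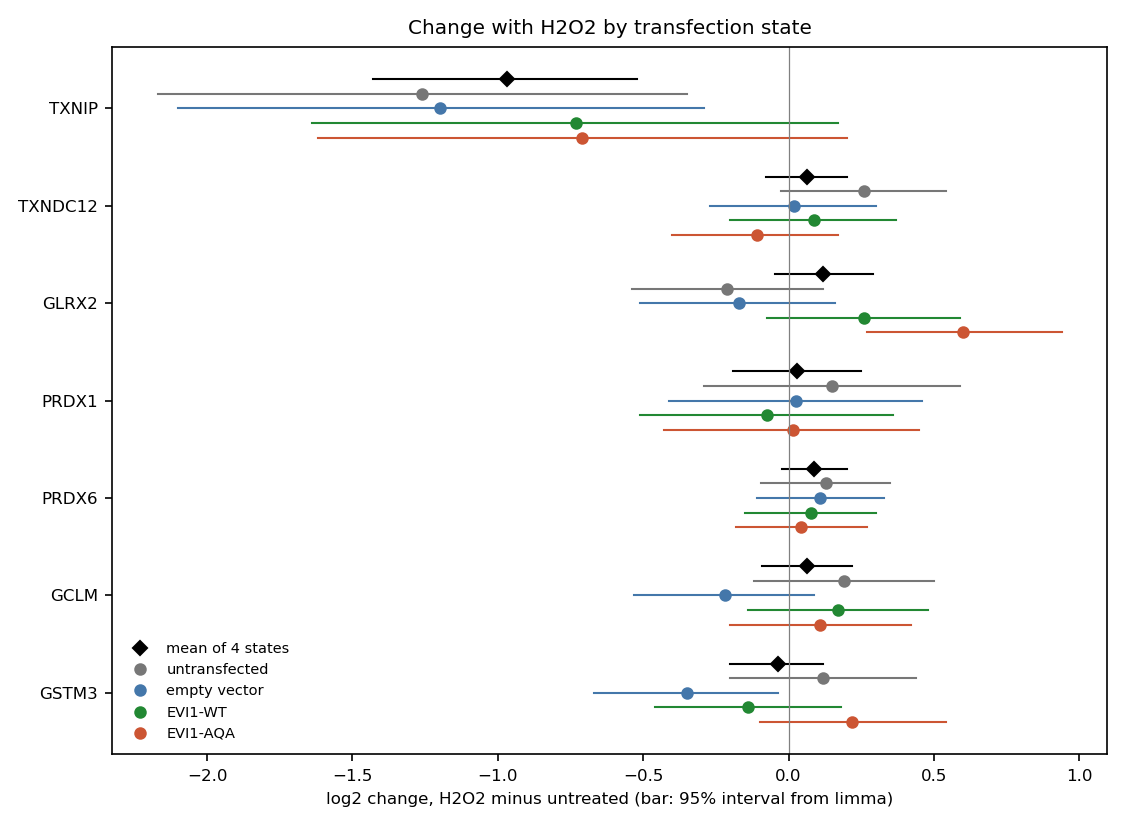
Fitted log2 change, H2O2 minus untreated (horizontal axis), of each gene over the 4 states (diamond) and in each state (circles), with 95% intervals from limma as bars. The interval of the mean of 4 states excludes 0 for TXNIP only, and that of GLRX2 in EVI1-AQA cells runs from 0.27 to 0.94.

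GLRX2 and TXNDC12 are relatives of thioredoxin. GLRX2 (ENSG00000023572, chr1:193090866-193106114, minus strand), a glutaredoxin of mitochondria, had its largest change in EVI1-AQA cells. There its values were -0.081, -0.41 and -0.13 when untreated and 0.41, 0.59 and 0.19 with H2O2. The groups did not overlap, which was so for 22.3% of all rows in this state, and the pairs differed by 0.49, 1.01 and 0.32. The fitted change was 0.60 (SE 0.16, interval 0.27 to 0.94), and it missed the threshold (limma adjusted p = 0.0539), passing it only after quantile normalization (limma adjusted p = 0.0375). With the replicate number as a block it was 0.60 (limma adjusted p = 0.111), and without the 3 departing libraries also 0.60 (limma adjusted p = 0.102). Leaving out replicate 1, 2 or 3 gave 0.66, 0.40 and 0.75 (limma adjusted p = 0.13, 0.415 and 0.189), so its size depended on single batches.

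The EVI1-WT pairs of GLRX2 were also all above 0, at 0.21, 0.39 and 0.17, from untreated values of -0.34, -0.45 and -0.07. Those of empty vector cells were 0.0071, -0.067 and -0.46, from untreated values of 0.19, 0.10 and 0.32. Those of untransfected cells were 0.19, -0.68 and -0.14, so the states without EVI1 went in both directions. The interaction of GLRX2 had an F-test p of 0.00469, which did not hold after adjustment (limma adjusted p = 0.202, and 0.318 without the departing libraries). At this threshold no gene of the 7 was called and 0.259% of all rows were, whereas GLRX2 and 11.5% of all rows had an unadjusted p under 0.05. Its response with EVI1-AQA exceeded that of empty vector cells by 0.78 (interval 0.31 to 1.25, limma adjusted p = 0.123) and that with EVI1-WT by 0.34 (interval -0.13 to 0.82, limma adjusted p = 0.643). When untreated, GLRX2 was -0.49 with EVI1-WT (interval -0.83 to -0.16, limma adjusted p = 0.560) and -0.41 with EVI1-AQA (interval -0.75 to -0.081, limma adjusted p = 0.232) relative to empty vector cells. These differences share the empty vector samples.

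TXNDC12 (ENSG00000117862, chr1:52020131-52055191, minus strand) encodes a thioredoxin-like protein of the endoplasmic reticulum. Over the 4 states its change was 0.063 (interval -0.079 to 0.20, limma adjusted p = 0.569), with 7 of 12 pairs higher. In untransfected cells its values were -0.076, -0.10 and -0.56 when untreated and 0.065, 0.017 and -0.048 with H2O2. The groups did not overlap, as in 15.6% of all rows in this state, and the largest pair, 0.52, came from the low untreated sample of batch 3. The fitted change there was 0.26 (interval -0.027 to 0.54, limma adjusted p = 0.375). In the other 3 states it ranged from -0.11 to 0.087. KTI12 lies within TXNDC12 on the same strand, and its row had a mean difference of 0.49. Another protein-coding gene on that strand, ENSG00000285839 (chr1:52020153-52033350), lies within TXNDC12 close to its 3′ end and had no row. How reads in bases that genes share were assigned is not stated in the sources used here.

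Neither peroxiredoxin was called over the 4 states. PRDX1 (ENSG00000117450, chr1:45510914-45542732, minus strand), the cytosolic enzyme that thioredoxin reduces, had a change of 0.028 over the 4 states (interval -0.19 to 0.25, limma adjusted p = 0.881). Its pairs were all below 0 in batch 1, with a mean of -0.14 ± 0.098, and had a mean of 0.22 ± 0.37 in batch 3 (SD, n = 4 pairs), with 4 of 12 higher in all. PRDX6 (ENSG00000117592, chr1:173477330-173488815, plus strand), which uses glutathione as its reductant, had a change of 0.089 (interval -0.023 to 0.20, limma adjusted p = 0.271). PRDX6 was higher with H2O2 in all 4 pairs of batch 1, in all 4 of batch 3 and in 1 of 4 pairs of batch 2, which gave 9 of 12 pairs higher. In linear terms the upper bounds were 119% of the untreated value for PRDX1 and 115% for PRDX6.

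The enzymes of glutathione synthesis and transfer were not called over the 4 states. GCLM (ENSG00000023909, chr1:93885199-93909456, minus strand), the modifier subunit of glutamate-cysteine ligase, had a change of 0.063 (interval -0.091 to 0.22, limma adjusted p = 0.604), which corresponds to 104% of the untreated value (interval 93.9% to 116%). In untransfected cells GCLM was -0.12, 0.06 and -0.15 when untreated and 0.12 in all 3 samples with H2O2. The groups did not overlap, as in 15.6% of all rows in this state. In empty vector cells it was -0.14, 0.22 and -0.34 when untreated and -0.041, -0.45 and -0.43 with H2O2. The low pair of batch 2 there, at -0.67, holds a departing library. In EVI1-WT cells the pairs were 0.16, 0.11 and 0.24 and in EVI1-AQA cells 0.029, 0.35 and -0.043.

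GSTM3 (ENSG00000134202, chr1:109733932-109741038, minus strand), a mu class glutathione transferase, had a change of -0.037 (interval -0.20 to 0.12, limma adjusted p = 0.774). Batch 1 was lower with H2O2 in all 4 pairs, with a mean of -0.34 ± 0.26, whereas 3 of 4 pairs of batch 3 were higher, with a mean of 0.16 ± 0.30 (SD, n = 4 pairs). In empty vector cells its values were 0.29, 0.074 and 0.067 when untreated and -0.40, -0.15 and -0.077 with H2O2. The groups did not overlap there, as in 24.5% of all rows, and the change was -0.35 (interval -0.67 to -0.035, limma adjusted p = 0.233). The response with EVI1-AQA exceeded that of empty vector cells by 0.57 (interval 0.12 to 1.02, limma adjusted p = 0.227), and by 0.75 without the departing libraries (limma adjusted p = 0.191). GSTM3 belongs to a family of similar genes and lies within the GSTM5 locus on the opposite strand, so its values are uncertain in this respect. PRDX1 overlaps MMACHC and GLRX2 overlaps RO60 on the opposite strand, with mean differences of 0.028 and -0.0074 in those rows.

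To see whether the genes varied with the plasmid, states were compared at each treatment. No gene of the 7 passed an adjusted p of 0.05 in limma in any of the 8 comparisons. When untreated, 0.147% of all rows passed for empty vector minus untransfected and 0.0864% for EVI1-AQA minus empty vector, and with H2O2 0.0173% passed for EVI1-AQA minus empty vector and 0.0173% for EVI1-AQA minus EVI1-WT, with 0% in the other 4 comparisons. At an unadjusted p of 0.05 the untreated counts were 0 of 7 for empty vector minus untransfected, 2 for EVI1-WT minus empty vector, 2 for EVI1-AQA minus empty vector and 0 for EVI1-AQA minus EVI1-WT. The shares of all rows were 14.7%, 7.09%, 14.9% and 4.77%. With H2O2 the counts were 2, 2, 4 and 1, beside shares of 11%, 4.67%, 9.15% and 10.5%. The genes of a count rest on the same samples, and the comparisons with empty vector share its samples. With H2O2 the empty vector, EVI1-WT and EVI1-AQA groups each hold a departing library. In the fit with a replicate block, PRDX6 was no longer counted for empty vector minus untransfected with H2O2 (limma unadjusted p = 0.0666), nor PRDX1 for EVI1-WT minus empty vector (limma unadjusted p = 0.059), which left 1 gene in each, beside 8.39% and 3.23% of all rows. The responses to H2O2 themselves differed at an unadjusted p of 0.05 for 1, 0, 2 and 0 genes in these 4 comparisons, beside 4.44%, 3.41%, 14.2% and 9.78% of all rows, and for none after adjustment, where EVI1-AQA minus empty vector had 0.406% of all rows and the other 3 had 0%. The gene counted for empty vector minus untransfected, GSTM3, was not counted with the block (limma unadjusted p = 0.0564), which left 0, beside 3.17% of all rows.

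PRDX1 had higher values with EVI1 than with empty vector at both treatments. When untreated it was -0.034, 0.051 and -0.91 with empty vector, 0.15, 0.023 and 0.59 with EVI1-WT and 0.15, 0.22 and 0.21 with EVI1-AQA. With H2O2 it was -0.30, -0.13 and -0.38 with empty vector, 0.036, 0.090 and 0.41 with EVI1-WT and 0.0075, 0.41 and 0.20 with EVI1-AQA. Both EVI1 groups lay above the empty vector group with H2O2, and the groups were apart in this way or the opposite one in 10.2% of all rows for EVI1-WT and in 14.4% for EVI1-AQA. When untreated EVI1-AQA lay above empty vector, with 21.8% of all rows apart, whereas EVI1-WT overlapped it, and the lowest sample was empty vector in batch 3. When untreated the differences were 0.55 for EVI1-WT (limma adjusted p = 0.658) and 0.49 for EVI1-AQA (limma adjusted p = 0.283). With H2O2 they were 0.45 (limma adjusted p = 0.998) and 0.48 (limma adjusted p = 0.493), and without the departing libraries 0.56 and 0.65 (limma adjusted p = 0.681 and 0.474). Untransfected cells had PRDX1 values of 0.016, -0.30 and -0.32 when untreated, and the highest of them lay next to the lowest EVI1-WT value, 0.023. With H2O2 their values were -0.021, -0.36 and 0.22, which overlapped both EVI1 groups.

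With H2O2, GCLM was 0.53 above empty vector in the EVI1-WT group (interval 0.22 to 0.84), from values of 0.098, 0.14 and 0.44 against -0.041, -0.45 and -0.43. This difference ranked 21 of 11579 rows by p and still had a limma adjusted p of 0.852. Without the 3 departing libraries, of which each group holds 1, it was 0.51 (limma adjusted p = 0.546). Empty vector was the lowest group of GCLM with H2O2, with a mean of -0.31. The other means were 0.12 in untransfected, 0.23 in EVI1-WT and 0.088 in EVI1-AQA cells. EVI1-AQA minus empty vector was 0.39 (interval 0.087 to 0.7, limma adjusted p = 0.399). Empty vector minus untransfected was -0.43 (interval -0.73 to -0.12, limma adjusted p = 0.345). Without the departing libraries these were 0.32 and -0.36. PRDX6 was highest in untransfected cells, at 0.11 ± 0.15 when untreated and 0.24 ± 0.094 with H2O2, whereas the means of the transfected groups lay between -0.10 and 0.0074 (SD, n = 3). The empty vector difference from untransfected cells with H2O2 was -0.23 (interval -0.46 to -0.0083, limma adjusted p = 0.446), and -0.17 without the departing libraries (limma adjusted p = 0.866).

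Other genes of thiol and glutathione metabolism and of NADPH supply and detoxification on chromosomes 1 and X were compared in the same way over the 4 states. Of 25 listed, 18 had a row, and 1 rose and 2 fell at an adjusted p of 0.05 in limma, beside 8.9% and 7.63% of all rows. ERO1LB, an oxidase that forms disulfides in the endoplasmic reticulum, rose by 0.27 (SE 0.064, limma adjusted p = 0.00763) and was higher in 10 of 12 pairs. By state its change was 0.40 in untransfected, 0.044 in empty vector, 0.52 in EVI1-WT and 0.11 in EVI1-AQA cells. The F-test of the interaction did not distinguish these states (limma adjusted p = 0.415). MGST3, a microsomal glutathione transferase, fell by 0.21 (SE 0.070, limma adjusted p = 0.0405), and QSOX1, a sulfhydryl oxidase of the secretory pathway, fell by 0.20 (SE 0.067, limma adjusted p = 0.0432). Both were lower in 11 of 12 pairs and were not called with the replicate number as a block (limma adjusted p = 0.0717 and 0.0767) or without the 3 departing libraries (limma adjusted p = 0.0857 and 0.0923).

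Over the 18 genes the median change was -0.12, with 15 below and 3 above 0. Over 1541 rows of chromosomes 1 and X the median was 0.0054, with 746 below 0. Whether the 18 genes changed together was not tested. The median was -0.19 over the 9 thiol and glutathione genes and -0.10 over the 9 genes of NADPH supply and detoxification, of which none was called. For the 7 thiol antioxidant genes described above it was 0.063.

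**Figure D2:**
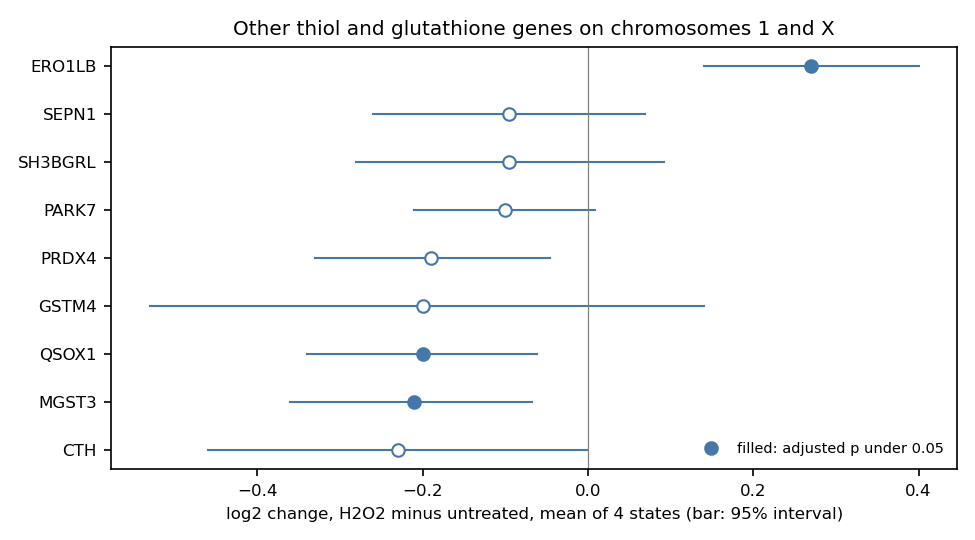
Fitted log2 change, H2O2 minus untreated, mean of 4 states (horizontal axis), of the 9 other thiol and glutathione genes with a row, with 95% intervals from limma as bars and filled circles for an adjusted p under 0.05. ERO1LB (0.27), QSOX1 (-0.20) and MGST3 (-0.21) are filled, and 8 of the 9 estimates lie below 0.

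Likeness of pattern was measured by Pearson correlation over the 24 centred values with rows of chromosomes 1 and X, which share libraries and treatment. For TXNIP the highest values were 0.788 for IER5, an immediate early response gene, 0.779 for NFIA, a transcription factor, and 0.769 for NUF2, a kinetochore subunit. NFIA was lower with H2O2 in 12 of 12 pairs, with a mean difference of -0.41, and IER5 and NUF2 were each lower in 10 pairs, with means of -0.33 and -0.21. For PRDX6 the highest were SF3A3 (0.855), WDR3 (0.802) and PABPC4 (0.766), and for TXNDC12 they were MLLT11 (0.851), TMLHE (0.790) and PHTF1 (0.770). GSTM3 was most like THRAP3 (0.736), RP11-92K2.2 (0.718) and MAN1A2 (0.692), and GCLM was most like IL6R (0.694), AKIRIN1 (0.646) and FBXO28 (0.613). PRDX1 was most like OPRD1 (0.675), TMEM50A (0.674) and COX7B (0.664), and GLRX2 was most like TMEM222 (0.650), MDM4 (0.630) and TARS2 (0.607). Among the 7 genes themselves the 21 correlations ran from -0.405 (TXNIP with TXNDC12) to 0.595 (PRDX1 with GCLM), with a median of -0.00861.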

How the data were processed

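RNA from 24 HEK293 samples was sequenced by the authors with a QuantSeq 3′ forward kit in reads of 75 bases. Per the study's methods, reads were assigned with the Ensembl annotation of GRCh38 and processed with Qlucore Omics Explorer, where an FPKM of 10 was the lower limit. The aligner and its use of strand are not given in the sources used here. The deposited values of 11579 rows are on a log2 scale, and the mean of every row in each batch was 0 (largest departure 4.5e-06). The depth is unknown, and 3 samples per group limit the precision.

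limma 3.58.1 (R 4.3.3) was used to fit 8 group means over the 24 samples, with no term for the replicate number (16 residual degrees of freedom and 4.88 from limma's prior), two-sided, with Benjamini-Hochberg adjustment over all rows and a threshold of 0.05. The centring had already taken the batch means out of every row, which this fit does not count, so its SEs and p-values are somewhat too small. With the replicate number as a block, 14 residual degrees of freedom remained. The SE of PRDX6 over the 4 states was then 0.06 against 0.054, and 12.3% of all rows were called against 16.5%. The script was tested on simulated data. Pairs were formed by the batch number in the labels. Same-numbered samples had a mean correlation of deviations of -0.140. Centring each row over the 8 samples of a batch forces a negative value of this kind, so it cannot show whether same-numbered samples belong together. Nothing states separate cultures, so p-values measure the spread between these samples, which may be technical.

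The 7 genes and the lists were chosen with earlier results of these data known. Named genes are the 7, the list genes called over the 4 states and, for each of the 7, the 3 rows of chromosomes 1 and X with the highest correlation over 24 values. Genes named besides these (CACNB3 and overlapping neighbours) were chosen after their values were seen. The value of 1 list gene is not reported here. Alternatives were a replicate block, no moderation, only the groups compared, median centring, quantile normalization, and leaving out each replicate or the 3 departing libraries. Positions are from GENCODE v44, in which 10892 row identifiers were found. Promoter sequences are from RefSeq on GRCh38.p14.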

Additional observations from a re-analysis of the deposited data

How the results depend on the processing

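The fall of TXNIP over the 4 states stayed past the threshold under every alternative run, with changes from -1.21 to -0.76 and limma adjusted p from 0.00193 to 0.0407. Leaving out replicate 1, 2 or 3 gave -1.18, -0.99 and -0.76. The number of the 7 genes called with H2O2 in EVI1-AQA cells was 1 after quantile normalization (GLRX2, 0.61) against 0. Of the 18 related genes 3 were called, against 1 with the replicate block, 1 without the 3 departing libraries and 0 to 1 when a replicate was left out, where fewer samples were fitted, and 4 with no moderation and 4 after quantile normalization. Over all rows, 1914 were called, against 1420 with the replicate block and 581, 595 and 1218 without replicate 1, 2 or 3. Among the 7 genes and, over the 4 states, the 18 related genes, the replicate block changed the call of MGST3 and QSOX1 only at an adjusted p of 0.05. For the 7 genes it also ended 3 calls at an unadjusted p of 0.05 (PRDX1, PRDX6 and GSTM3, each in 1 comparison). A filter on low values was not run, because centred values hold no level.

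Of 308 results under alternatives for the 7 genes, 294 kept their direction and side of the threshold and 13 changed sign, all of them in changes that were not called. When replicates were left out in turn, PRDX1 ranged from -0.067 to 0.11 over the 4 states (0.028 with all samples), from -0.045 to 0.25 in untransfected cells (0.15), from -0.23 to 0.17 with empty vector (0.025) and from -0.079 to 0.094 with EVI1-AQA (0.014). GCLM ranged from -0.38 to 0.0023 with empty vector (-0.22) and from -0.0072 to 0.19 with EVI1-AQA (0.11), and TXNDC12 from -0.076 to 0.068 with empty vector (0.019) and from -0.23 to 0.0074 with EVI1-AQA (-0.11). GSTM3 ranged from -0.14 to 0.12 over the 4 states (-0.037) and from -0.0011 to 0.21 in untransfected cells (0.12), and GLRX2 from -0.41 to 0.023 in untransfected cells (-0.21). Without the 3 departing libraries, PRDX1 with empty vector was -0.044 and PRDX6 with EVI1-AQA was -0.0023 (0.042 with all). The cause was not tested.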
